A study of Mus musculus with 4 samples.

Results

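Fyn and its relatives are the 9 genes whose symbols are Fyn, Src, Yes1, Lyn, Fgr, Lck, Blk, Csk and Frk, taken by exact match of the symbol from the 53465 genes counted in each library. Of these 9 genes, 8 were counted in some library and 8 passed the filter on low counts, whereas Blk had 0 counts in all 4 libraries. RNA-Seq was performed on primary mouse oligodendroglial cultures (1° OGCs) that had been kept in differentiating conditions for 3 days (3ddiff) after shake-off and microglia depletion. The question was how transcripts differ when Zfp276, a zinc finger protein gene, is deleted in the oligodendroglial lineage.

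Both groups carried floxed Zfp276 on both alleles (Zfp276 flox/flox), with exons 2 to 5 between the loxP sites. The ctrl group had this genotype alone. The Zfp276cko group had in addition the Sox10::Cre transgene, which drives recombination in oligodendroglial cells from the precursor stage on. Which other cells of the cultures recombined was not tested. A Cre-dependent tdTomato reporter at Rosa26 served to find Zfp276cko newborns for the cultures, and the mice had a mixed C3H and C57Bl/6J background. Each genotype was represented by 2 libraries, each of them from a preparation of forebrain cells pooled from 3 mice between postnatal days 2 and 4.

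Src-family kinases are non-receptor tyrosine kinases that are anchored to the inner face of the cell membrane and relay signals from adhesion molecules, growth factor receptors and immune receptors. A tyrosine in their C-terminal tail is phosphorylated by Csk, which closes the kinase, and is dephosphorylated by phosphatases such as receptor PTPα and CD45, which opens it. Fyn is the best known member in oligodendrocytes, where it acts below contactin, integrins and Mag on process outgrowth and on the local translation of Mbp mRNA. Src and Yes1 are broadly transcribed, whereas Lyn, Fgr, Lck and Blk are known above all from blood cells, with Lyn and Fgr also in microglia. Frk belongs to a related branch known from epithelial cells.

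The codon of the tail tyrosine is shown for the kinases, since it is the point at which Csk acts on the members of the Src family. Each sequence is 30 coding bases of a GENCODE transcript on GRCm38, 5′ to 3′, and the capitals mark the last tyrosine codon of the reading frame.
Fyn, chr10:39563934-39563963, plus strand: gccacagagccccagTATcagcccggtgaa
Src, chr2:157469923-157469952, plus strand: tccactgagccacagTACcagcccggggag
Yes1, chr5:32684721-32684750, plus strand: gctacagagccacagTACcaaccaggagaa
Lyn, chr4:3789912-3789941, plus strand: gccacagaagggcagTATcagcagcaaccg
Fgr, chr4:133000305-133000334, plus strand: tccacagaaccacagTACcagcctggagac
Lck, chr4:129548801-129548830, minus strand: gccacagagggccagTACcagccccagcct
Blk, chr14:63373395-63373424, minus strand: gccacggagggccaaTATgagctgcagccc
Frk, chr10:34608527-34608556, plus strand: gaaacagactgttccTATtcagatacaaat

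In Fyn this codon is number 531 of 537, with 6 codons after it. Src, Yes1 and Fgr also have 6 codons after the tyrosine, and Lyn, Lck and Blk have 4. Over the first 18 bases shown, Src, Lyn, Fgr and Blk shared 14 bases with Fyn, and Yes1 and Lck shared 15. Frk shared 9 of the 18 and has 8 codons after its last tyrosine, and whether that tyrosine has the same role is not stated in the sources used here. Although these tails are alike, the kinases could be told apart in the counts. Over windows of 101 nt, the length of a read, no window of Fyn, Src, Yes1, Fgr, Lck, Blk, Csk or Frk transcripts occurred in a transcript of another gene. For Lyn, 319 of 4065 windows (7.85%) also occurred in the pseudogene Gm11787, which had 0 counts in all 4 libraries.

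Counted reads were 21311469 and 21068322 in the ctrl libraries and 25265366 and 26599809 in the Zfp276cko libraries. Zfp276 itself had 1648 and 2230 normalized counts in ctrl against 490 and 503 in Zfp276cko libraries, the direction that the labels imply, although its count also includes exons outside the deleted part. A normalized count is the count scaled to the mean effective library size after TMM normalization. The ctrl libraries stood apart from each other, with a biological coefficient of variation of 0.357 against 0.0480 between the Zfp276cko libraries. Replicate 1 of ctrl had more of 8 fibroblast and vessel markers (summed normalized counts of 5800, against 244 in replicate 2 and 331 to 358 in Zfp276cko libraries) and the highest sum of 18 microglia markers. The sum of 10 interferon genes was 7412 and 3143 in ctrl against 74032 and 71798 in Zfp276cko libraries. Because of the spread between ctrl libraries, log2 fold changes of members and several list medians are also given with one or the other of them left out. The same spread applies to single genes of the lists, which have no such value here.

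Fyn was by far the most abundant of the 9 genes and was lower in both Zfp276cko libraries. The gene lies on chromosome 10 from 39368855 to 39565381 on the plus strand (GRCm38), with 4363 nt of merged exons. It had 39456 and 39172 normalized counts in ctrl against 23193 and 23379 in Zfp276cko libraries. The genotypes did not overlap, and the libraries within each genotype were nearly equal. The mean in Zfp276cko cells was 59.2% of that in ctrl, with 39314 ± 201 and 23286 ± 131 normalized counts (SD, n = 2 each). The log2 fold change was −0.76 with a standard error (SE) of 0.118. edgeR's quasi-likelihood test gave an unadjusted p of 0.00253 and an adjusted p of 0.134 over 15766 genes, so that Fyn was not called. DESeq2 called it, at −0.77 and an adjusted p of 3.23e-07. In bulk RNA, fewer cells of a type and less RNA per cell cannot be told apart.

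The spread of Fyn between libraries was small. The gap between the ctrl libraries was 0.0104 on the log2 scale for Fyn, and only 2.22% of 14324 genes that averaged 20 or more normalized counts had a smaller one. The median gap over these genes was 0.292 in ctrl and 0.0868 in Zfp276cko libraries. Leaving out each library in turn moved the log2 fold change of Fyn from −0.77 to −0.75 at the extremes. The adjusted p of these fits depended on which genotype supplied the spread. edgeR takes the spread of a gene in part from all genes, and over all genes it was wider in ctrl. For Fyn itself the gap was 0.0104 in ctrl and 0.0115 in Zfp276cko libraries. A p-value here thus rests on 2 preparations per genotype and on a spread that is partly shared over genes. The smallest p that an exact permutation test of 2 against 2 libraries can give is 0.333. Fyn had been singled out by the study from these same libraries, so its direction here is not independent evidence.

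**Figure D1:**
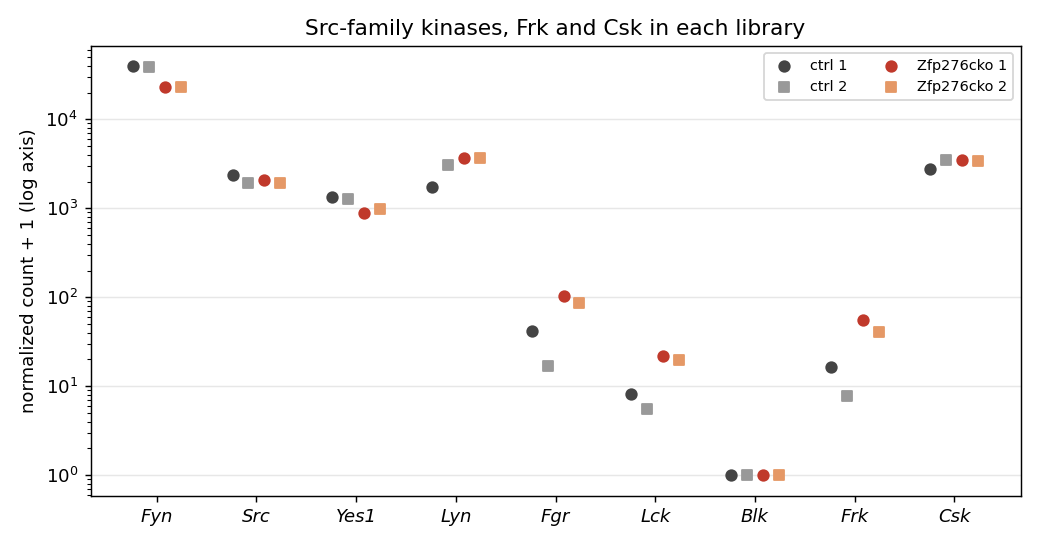
Normalized count plus 1 of the 9 genes in each library, on a log axis, with 1 point per library and colour by genotype. In each Zfp276cko library, Fyn and Yes1 were lower than in either ctrl library and Lyn, Fgr, Lck and Frk were higher, whereas Src and Csk overlapped and Blk was at 0.

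Yes1, the other broadly transcribed kinase next to Src, was lower as well. The gene is on chromosome 5 from 32611171 to 32687057 on the plus strand. Its normalized counts were 1336 and 1270 in ctrl against 887 and 979 in Zfp276cko libraries, again without overlap. A log2 fold change of −0.48 (SE 0.104) came with an unadjusted p of 0.00838 and an adjusted p of 0.183 in edgeR's test and an adjusted p of 0.0801 in DESeq2. This fold change is smaller than the 0.6 required for a call. It ranged from −0.55 to −0.41 with each library left out. An antisense gene, Gm10461, overlaps 635 nt (8.46%) of the exons of Yes1 and had 16 to 50 counts.

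For Src, the founding member of the family, the genotypes overlapped. The gene lies on chromosome 2 from 157418444 to 157471862 on the plus strand. It had 2353 and 1919 normalized counts in ctrl against 2059 and 1942 in Zfp276cko libraries. Both Zfp276cko values lay between the ctrl values. The log2 fold change was −0.09 (SE 0.132, adjusted p = 0.776 in edgeR's test), and it became 0.0611 when ctrl replicate 1 was left out and −0.25 when ctrl replicate 2 was. In the latter fit, with the spread of the Zfp276cko libraries only, edgeR's adjusted p was 0.0173. The difference between the ctrl libraries, 0.294 on the log2 scale, was thus larger than that between genotypes.

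Lyn, a kinase of myeloid and B cells that is also transcribed in microglia, was higher in both Zfp276cko libraries. It lies on chromosome 4 from 3678115 to 3813122 on the plus strand. Its normalized counts were 1726 and 3063 in ctrl against 3639 and 3699 in Zfp276cko libraries. The Zfp276cko libraries did not overlap with ctrl, but the gap between the ctrl libraries (0.827 on the log2 scale) was larger than that of 83.0% of genes. The mean was 2395 ± 945 in ctrl and 3669 ± 41.9 in Zfp276cko cells (SD, n = 2 each). The log2 fold change of 0.62 (SE 0.295) had an unadjusted p of 0.101 and an adjusted p of 0.410 in edgeR's test and 0.374 in DESeq2. It became 0.26 when ctrl replicate 1 was left out and 1.07 when ctrl replicate 2 was, so that its size rested on which ctrl library was used. The antisense gene Gm26857 overlaps 248 nt (6.09%) of its exons and had 2 to 15 counts.

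Fgr, a kinase of myeloid cells, was scarce and was higher in Zfp276cko libraries. The gene lies on chromosome 4 from 132974095 to 133001910 on the plus strand. It had 34 and 14 counts in ctrl against 114 and 100 in Zfp276cko libraries, or 40.4, 15.8, 103 and 85.9 normalized counts. The highest ctrl value was below the lowest Zfp276cko value. For Fgr the log2 fold change was 1.75 (SE 0.517), with an unadjusted p of 0.0252 and an adjusted p of 0.252 in edgeR's test and 0.0960 in DESeq2. It became 2.58 with ctrl replicate 1 left out and 1.21 with ctrl replicate 2 left out. From the summed counts alone, the ratio was 3.40 with an exact 95% interval of 2.48 to 4.75, which covers counting error only.

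Lck and Frk were near the limit of detection in ctrl cells and passed the filter on low counts through the Zfp276cko libraries only. They were thus tested only because they were higher there, and their direction is given as a description. Lck, the kinase of T cell receptor signalling, lies on chromosome 4 from 129548344 to 129573641 on the minus strand, and 6 and 4 counts were found in ctrl against 23 and 22 in Zfp276cko libraries. Normalized counts were 7.12 and 4.50 against 20.8 and 18.9. For Lck the log2 fold change was 1.76 (SE 0.430), with an unadjusted p of 0.0135 and an adjusted p of 0.204 in edgeR's test and 0.449 in DESeq2. This fold change became 2.11 with ctrl replicate 1 left out and 1.45 with ctrl replicate 2 left out. The mean of Lck was below 20 normalized counts, the minimum for a call. The counting ratio was 3.43 (exact 95% interval 1.71 to 7.64), and the interval covers counting error only.

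Frk lies on chromosome 10 from 34483399 to 34611278 on the plus strand, the chromosome that also holds Fyn. It had 13 and 6 counts in ctrl against 61 and 46 in Zfp276cko libraries. Normalized counts were 15.4 and 6.75 against 55.2 and 39.5, and the genotypes did not overlap. For Frk the log2 fold change was 2.09 (SE 0.509), the highest of the 8 tested members, with an unadjusted p of 0.0132 and an adjusted p of 0.203 in edgeR's test and 0.109 in DESeq2. It became 2.79 with ctrl replicate 1 left out and 1.59 with ctrl replicate 2 left out. The counting ratio was 4.30 (exact 95% interval 2.62 to 7.41), and the interval covers counting error only. As Frk was tested only because it was higher in Zfp276cko libraries, its p-values and interval are no evidence for that direction. Of 5 epithelial markers, the cell type Frk is known from, 0 were at 0 in all libraries, but Cldn4 had 4 counts in Zfp276cko replicate 1 only. Their sum was lower in Zfp276cko libraries (103 and 26.6) than in ctrl (232 and 183). The largest part of it was Epcam, with 177 and 97.9 normalized counts in ctrl against 41.6 and 17.2. Krt8 was lower as well, whereas Krt18, Cdh1 and Cldn4 overlapped between genotypes.

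Blk, the kinase of B cell receptor signalling, lies on chromosome 14 from 63372836 to 63417037 on the minus strand and was not detected. A count of 0 does not exclude a level too low to be seen at the depth of these libraries. Csk, which holds the other kinases in check through the tail tyrosine shown above, differed by less than the spread between ctrl libraries. It lies on chromosome 9 from 57626646 to 57653631 on the minus strand and had 2771 and 3475 normalized counts in ctrl against 3462 and 3428 in Zfp276cko libraries. Both Zfp276cko values lay within the range of ctrl. The log2 fold change was 0.14 (SE 0.140, adjusted p = 0.679 in edgeR's test), and it became −0.0115 with ctrl replicate 1 left out and 0.30 with ctrl replicate 2 left out (edgeR adjusted p = 0.00324 in the latter fit, with the spread of the Zfp276cko libraries only).

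Over the 9 genes, edgeR's quasi-likelihood test called 0 lower and 0 higher, against 0% of 15766 genes lower and 0% higher. With the unadjusted p and the same limits on fold change and mean, 1 member was lower (Fyn) and 2 were higher (Fgr and Frk), where 3.02% of all genes were lower and 5.11% higher. DESeq2 called 1 member lower (Fyn) and 0 higher, where it called 2.11% of 15896 genes lower and 2.8% higher. Both Zfp276cko libraries were below both ctrl libraries for 2 members (Fyn and Yes1) and above them for 4 (Lyn, Fgr, Lck and Frk), against 23.7% and 26.8% of all genes. The median log2 fold change of the 8 tested members was 0.38, and that of all tested genes was −0.00125. Lck and Frk enter these counts and this median only through their Zfp276cko libraries, and over the other 6 tested members the median was 0.0236. With ctrl replicate 1 left out the median of the 8 was 0.16, and with ctrl replicate 2 left out it was 0.69.

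**Figure D2:**
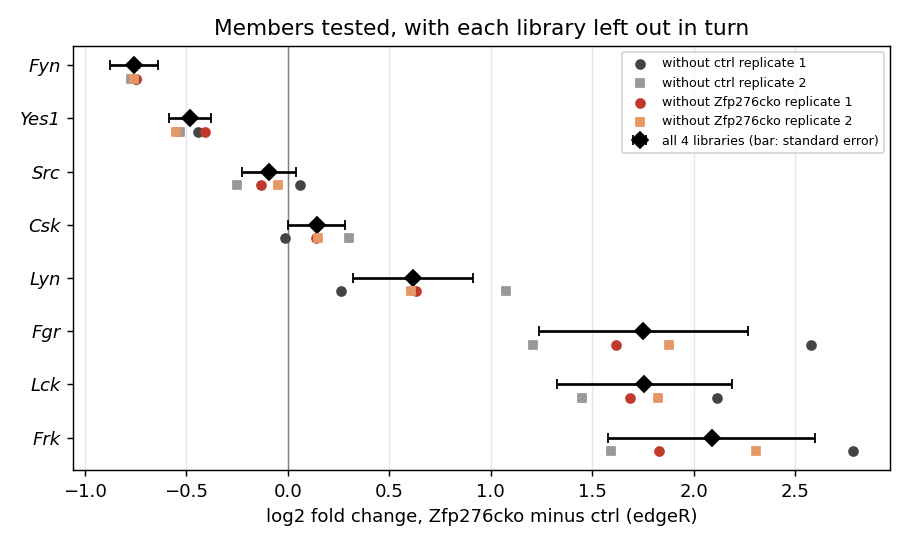
Log2 fold change (Zfp276cko minus ctrl, edgeR) of the 8 tested members, as a diamond with its standard error, and the same value with each library left out as smaller points. The points of Fyn nearly coincided, whereas those of Lyn, Fgr and Frk spread widely with the ctrl library left out and those of Src and Csk lay on both sides of 0.

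Because counts grow with transcript length, levels of different genes were compared as RPKM-type values, that is as counts scaled to library size and to kilobases of merged exon. On this scale Fyn was at 383 and 380 in ctrl libraries and at 225 and 227 in Zfp276cko libraries. In ctrl cells Csk came next with 31.4 and 39.3. Lyn (17.9 and 31.8) and Src (22.8 and 18.6) followed, and Lyn overlapped with both Csk and Src. Yes1 was at 7.53 and 7.16, Fgr at 0.442 and 0.173, and Lck (0.103 and 0.0650) and Frk (0.124 and 0.0543) overlapped at the end of the order.

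In Zfp276cko cells Csk was at 39.2 and 38.8 and Lyn at 37.8 and 38.4, so that Lyn came close to Csk without overlap and no longer overlapped with Src. Src had 19.9 and 18.8 and Yes1 had 5.0 and 5.51. Fgr was at 1.13 and 0.941, Frk at 0.444 and 0.318 and Lck at 0.301 and 0.273.

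Of the summed level per length of the 7 Src-family kinases among the 9 genes (Fyn, Src, Yes1, Lyn, Fgr, Lck and Blk), Fyn made up 88.7% and 86.8% in ctrl and 77.8% and 78.0% in Zfp276cko libraries. The share of Lyn was 4.16% and 7.27% in ctrl and 13.1% and 13.2% in Zfp276cko libraries. Src had 5.28% and 4.24% against 6.90% and 6.47%, and Yes1 lay between 1.64% and 1.90% in all 4 libraries. A share also moves with the levels of the other kinases. The level of Src itself overlapped, with 22.8 and 18.6 in ctrl against 19.9 and 18.8 in Zfp276cko libraries. Fgr and Lck together with Blk made up the small remainder. The summed level was 431 and 438 in ctrl against 289 and 291 in Zfp276cko libraries.

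**Figure D3:**
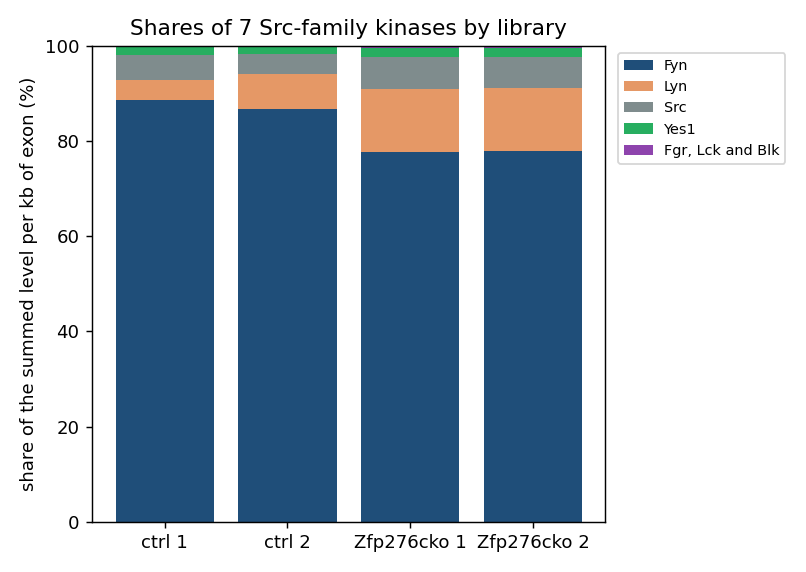
Share of each of 7 Src-family kinases in the summed level per kilobase of exon, in percent, as 1 stacked bar per library. Fyn made up 86.8% or more of the bars of both ctrl libraries and 78.0% or less of those of both Zfp276cko libraries, where the part of Lyn was wider.

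Of more distant relatives that were listed, Matk, a Csk-like kinase, had 76.0 and 78.8 against 185 and 149 normalized counts (1.10, SE 0.234, edgeR adjusted p = 0.180, DESeq2 adjusted p = 0.0437). Srms overlapped between genotypes with 8.31 and 34.9 against 15.4 and 8.59, and Ptk6 had at most 10 counts and was not tested.

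Cell type markers also differed between libraries. Of 15 oligodendrocyte markers, 12 were lower and 1 was higher in each Zfp276cko library than in either ctrl library, against 23.7% and 26.8% of all genes. The list's median was −0.86 on the log2 scale, and it was −1.01 with ctrl replicate 1 left out and −0.54 with ctrl replicate 2 left out. DESeq2 called 8 lower, where it called 2.11% of all genes lower. Their summed normalized counts were 384934 and 504755 in ctrl against 264085 and 269277 in Zfp276cko libraries, and 0 of the 15 were at 0. The Fyn log2 fold change of −0.76 thus stood beside −0.74 for Mbp and −0.92 for Mog (myelin proteins), −0.60 for Olig2 and −0.09 for Sox10 (transcription factors of the lineage). None of these passed edgeR's adjusted test. Medians were −0.19 for 8 markers of oligodendrocyte precursor cells, 0.08 for 8 astrocyte markers and −0.04 for 8 neuron markers. With ctrl replicate 1 left out these were −0.29, −0.12 and −0.49, and with ctrl replicate 2 left out they were −0.32, 0.70 and 1.86. The part of the oligodendrocyte share of the culture in the difference of Fyn was not tested.

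For the myeloid kinases, values of the 18 microglia markers are given. Their sum was 95480 and 58794 in ctrl against 71199 and 72286 in Zfp276cko libraries, so that both Zfp276cko libraries lay between the ctrl libraries. The median of their log2 fold changes was 0.06, and leaving out ctrl replicate 1 made it 0.66 and leaving out ctrl replicate 2 made it −0.37. Both Zfp276cko libraries were below both ctrl libraries for 1 marker and above for 4, against 23.7% and 26.8% of all genes. DESeq2 called 1 lower (Fcrls, −1.22) and 2 higher (Ptprc, 0.76, and Cd68, 0.99), where it called 2.11% of all genes lower and 2.8% higher. Of the 18, 0 were at 0. In ctrl replicate 1, which had the highest microglia sum, Lyn was at its lowest and Fgr was higher than in ctrl replicate 2. Single markers went both ways between ctrl replicates 1 and 2, so that their sum does not rank the microglial share of the libraries. The part of that share in the values of Lyn and Fgr was not tested. Csf1r had 11409 and 1850 normalized counts and Ctss 16135 and 3667, whereas Aif1 had 1248 and 3204 and Spi1 1665 and 2135. Interferon genes differed in the same direction as Lyn and Fgr, with 10 of 10 above both ctrl libraries, against 26.8% of all genes. Their median was 3.89 on the log2 scale, and their part in the kinases' values was not tested.

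The lymphocyte kinases had few markers beside them. Of 9 T and NK cell markers, 2 were at 0 in all libraries, namely Cd3g and Cd2, and 6 had at most 3 counts in every library. Their sum was 268 and 25.9 in ctrl against 58.8 and 56.7 in Zfp276cko libraries, most of it from Cd28 and Cd4. In the Zfp276cko libraries Cd4 had 45 and 43 counts, Cd28 had 10 and 18 and Zap70 had 6 and 5. Cd3d, Cd3e, Cd3g and Cd2 had 0 or 1 count in each library of either genotype. Which cells the Lck counts came from was not tested. Of 6 B cell markers, Ms4a1 was at 0, next to the 0 counts of Blk. Their sum was 148 and 49.5 in ctrl against 237 and 242 in Zfp276cko libraries, most of it from Cd79b and from Cd22, which is also known from microglia.

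**Figure D4:**
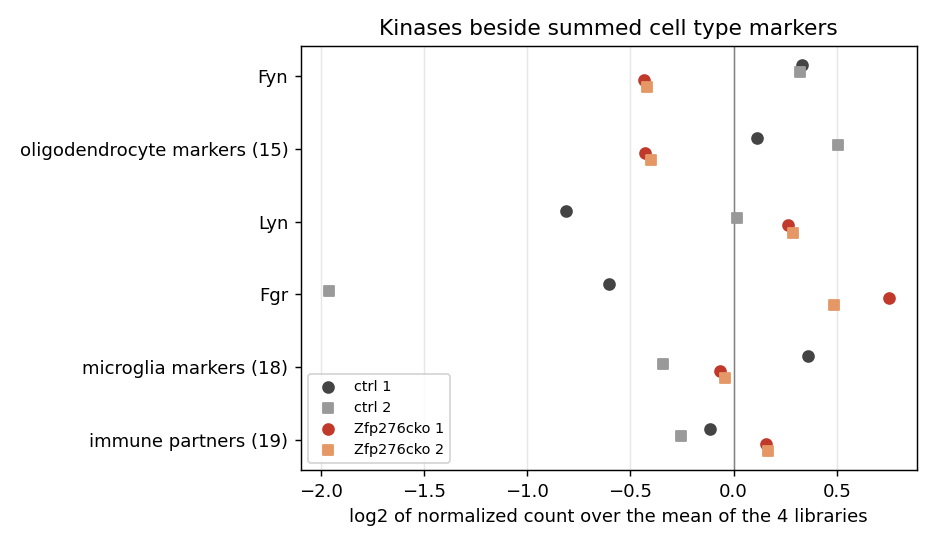
Log2 of the normalized count over the mean of the 4 libraries for Fyn, Lyn and Fgr and for the summed counts of oligodendrocyte markers, microglia markers and immune partners, with 1 point per library. Fyn and the oligodendrocyte markers were lower in both Zfp276cko libraries, whereas the microglia markers of the Zfp276cko libraries lay between those of the ctrl libraries.

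Genes that act on the tail tyrosine or on the activity of Src kinases went in both directions. Of 16 listed regulators, 15 were tested. Both Zfp276cko libraries were below both ctrl libraries for 4 of them and above for 6, against 23.7% and 26.8% of all genes. DESeq2 called 2 lower and 2 higher, where it called 2.11% of all genes lower and 2.8% higher. The same number passed with the unadjusted p of edgeR, where 3.02% of all genes were lower and 5.11% higher. edgeR's adjusted test called 0. The median log2 fold change was 0.07, and it was −0.0116 with ctrl replicate 2 left out. Both genes that DESeq2 called lower encode phosphatases. Ptpn11, which encodes SHP2, had 12038 and 11873 normalized counts in ctrl against 7341 and 7093 in Zfp276cko libraries (−0.73, SE 0.100, edgeR adjusted p = 0.123). Ptpre, the receptor phosphatase PTPε, had 6061 and 5037 against 2954 and 2903 (−0.92, SE 0.128, edgeR adjusted p = 0.123).

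The regulators that DESeq2 called higher were Matk and Ptprc. Ptprc encodes CD45, the phosphatase that removes the tail phosphate in blood cells and microglia. It had 3018 and 3101 normalized counts in ctrl against 5092 and 5264 in Zfp276cko libraries (0.76, SE 0.0903, edgeR adjusted p = 0.117), without overlap, and it is also one of the microglia markers. Ptpra, which opens Fyn and Src in neural cells, had 6828 and 5157 against 4543 and 4765 (−0.36, SE 0.168, edgeR adjusted p = 0.396). Pag1, the membrane anchor of Csk, overlapped between genotypes (0.16, edgeR adjusted p = 0.640), as did Cbl, a ubiquitin ligase for activated kinases (0.07, edgeR adjusted p = 0.839), and Pdlim5 (−0.22, edgeR adjusted p = 0.790).

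Upstream of Fyn, 16 listed surface molecules were tested, with a median log2 fold change of −0.30, which was −0.054 with ctrl replicate 1 left out and −0.36 with ctrl replicate 2 left out. Of these, 6 were below and 2 above both ctrl libraries, where 23.7% and 26.8% of all genes were. Of the list, 3 were lower (Unc5b, Mag and Cntn1) and 1 was higher (Cd44) with the unadjusted p of edgeR, against 3.02% and 5.11% of all genes. DESeq2 called 2 lower (Unc5b and Cntn1) and 0 higher, where it called 2.11% of all genes lower and 2.8% higher. edgeR's adjusted test called 0. Cntn1, the contactin with which Fyn associates in oligodendrocytes, had 11821 and 10924 normalized counts in ctrl against 7177 and 7097 in Zfp276cko libraries (−0.67, SE 0.106, edgeR adjusted p = 0.134). Mag, the myelin protein that binds Fyn, had 11060 and 18911 against 8380 and 8071 (−0.87, SE 0.286, edgeR adjusted p = 0.290), with a wide gap between the ctrl libraries.

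Unc5b, a netrin receptor, had 1052 and 911 normalized counts in ctrl against 507 and 564 in Zfp276cko libraries (−0.87, SE 0.138, edgeR adjusted p = 0.134). Cd44, the hyaluronan receptor, had 1700 and 1644 against 2533 and 2565 (0.61, SE 0.0827, edgeR adjusted p = 0.123). Neither gene overlapped between genotypes. Nfasc, which encodes the adhesion molecule neurofascin, was the most abundant of the list with 29853 and 53982 against 26502 and 24884 (−0.71, SE 0.318, edgeR adjusted p = 0.389), and its ctrl libraries were far apart. The netrin receptor Dcc overlapped between genotypes (0.14, edgeR adjusted p = 0.799), as did the adhesion molecule Ncam1 (0.05, edgeR adjusted p = 0.906). Itgb1, the integrin chain that pairs with Itga6 in oligodendrocytes, had a log2 fold change of −0.44 (edgeR adjusted p = 0.392), and Itga6 had 0.42 (edgeR adjusted p = 0.183).

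Downstream of Fyn, 22 listed effectors were tested and had small differences. The median log2 fold change was −0.18 and the range was −0.45 to 0.27, so that 0 of 22 reached the fold change of 0.6 that a call needs. Of these, 11 were below both ctrl libraries and 1 was above, where 23.7% and 26.8% of all genes were. In edgeR's test without the limit on fold change, an unadjusted p of at most 0.05 was reached by 6 of 22, all lower, and an adjusted p of at most 0.05 by 0. DESeq2's adjusted p was 0.0182 for Bcar1 and 0.0474 for Mapt, with fold changes too small for a call. Over all tested genes the same unadjusted p was reached in edgeR by 1151 lower and 1313 higher genes of 15766. The 6 genes were Bcar1 (−0.45), Cdk5 (−0.40), Arhgap35 (−0.39), Mapt (−0.39), Rock2 (−0.37) and Ptk2 (−0.32).

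Mapt, the microtubule protein tau to which Fyn binds through its SH3 domain, had 10855 and 11417 normalized counts in ctrl against 8550 and 8457 in Zfp276cko libraries (SE 0.102, edgeR adjusted p = 0.219). Arhgap35, the p190RhoGAP that Fyn phosphorylates, had 20780 and 23774 against 17467 and 16490 (SE 0.131, edgeR adjusted p = 0.294). Genotypes did not overlap for either. Hnrnpa2b1, which carries Mbp mRNA in transport granules and is a substrate of Fyn, did overlap, with 22710 and 28142 against 22947 and 24502 (−0.10, edgeR adjusted p = 0.805). Qk, the quaking RNA-binding protein, had 43825 and 33030 against 30574 and 33559 (−0.26, edgeR adjusted p = 0.568). Rac1, a small GTPase of process outgrowth, had 17570 and 18434 against 14530 and 14856 (−0.29, edgeR adjusted p = 0.328).

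Of 19 partners of Src kinases in immune receptor signalling, 10 were above and 2 below both ctrl libraries, where 26.8% and 23.7% of all genes were. The list's median was 0.13 on the log2 scale, and it was 0.36 with ctrl replicate 1 left out and 0.24 with ctrl replicate 2 left out. DESeq2 called 4 higher and 0 lower, where it called 2.8% of all genes higher and 2.11% lower. These were the 4 that passed with the unadjusted p of edgeR, where 5.11% of all genes were higher and 3.02% lower. edgeR's adjusted test called 0. Syk, the kinase recruited after Src kinases phosphorylate receptor tails, had 3055 and 3739 normalized counts in ctrl against 5589 and 5712 in Zfp276cko libraries (0.73, SE 0.135, edgeR adjusted p = 0.161). Clec7a, the receptor dectin-1, had 484 and 585 against 1189 and 1178 (1.15, SE 0.137, edgeR adjusted p = 0.117). Neither overlapped between genotypes.

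Fcgr1, a high-affinity Fc receptor that responds to interferon, had 976 and 426 normalized counts in ctrl against 2089 and 2027 in Zfp276cko libraries (1.55, SE 0.417, edgeR adjusted p = 0.227). Sirpa, an inhibitory receptor phosphorylated by Src kinases, had 9311 and 7448 against 12790 and 13349 (0.64, SE 0.151, edgeR adjusted p = 0.194). The adaptors Tyrobp and Fcer1g, through which Syk and Src kinases signal in microglia, had log2 fold changes of −0.07 (edgeR adjusted p = 0.913) and 0.08 (edgeR adjusted p = 0.720). Itgb2, the integrin chain of leukocytes, had 0.41 (edgeR adjusted p = 0.191). Trem2 and Fcgr3 were highest in ctrl replicate 1, with 1056 and 1656 normalized counts there and 180 and 23.6 in ctrl replicate 2.

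**Figure D5:**
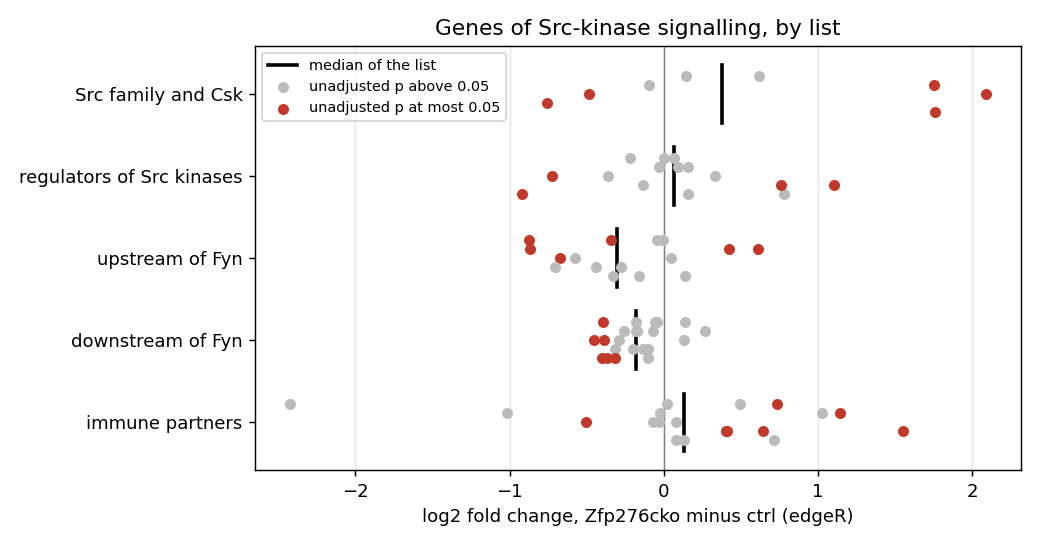
Log2 fold change (Zfp276cko minus ctrl, edgeR) of each tested gene of the 9 members and of 4 lists of Src-kinase signalling, with a bar at the median of each list and colour for an unadjusted p of at most 0.05. Effectors downstream of Fyn lay between −0.45 and 0.27. All 4 lists held genes on both sides of 0, and regulators, upstream molecules and immune partners spread more widely than the effectors.

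Genes with the profile closest to Fyn were searched among 14324 genes by the Euclidean distance of their centred log2 normalized counts over the 4 libraries. The nearest were Bpgm, an enzyme of the glycolytic side path (distance 0.022), 4933415A04Rik (0.0377), Ado (0.0451), Ptpn11 (0.0515) and Mc5r (0.0575). Within a distance of 0.2 there were 133 genes. The nearest to Lyn were Rapgef2 (0.0451), Eef1a2 (0.0462), Rims3 (0.0468), Gm19412 (0.053) and Wscd2 (0.0653), with 85 genes within 0.2. With 4 libraries of 2 genotypes, such a distance describes these libraries only.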

How the data were processed

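RNA-Seq libraries of cultured 1° OGCs at 3ddiff (2 ctrl, 2 Zfp276cko) were made with a stranded mRNA kit and read as 101 nt single ends. The authors mapped reads to mm10 (GRCm38). The submitters' processing notes name STAR 2.5.4a and featureCounts 1.5.1, whereas the paper's methods name HTSeq, and the strand setting is not given in the sources used here. The authors deposited whole-number counts per gene, without normalization. Reads of an antisense gene can therefore not be told apart where exons overlap, and Fyn isoforms are summed.

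Counts were analysed with R 4.3.3, edgeR 4.0.16, limma 3.58.1 and DESeq2 1.42.0. edgeR's filterByExpr left 15766 genes, which were TMM-normalized, compared with the quasi-likelihood test on genotype alone and adjusted after Benjamini and Hochberg over all of them. Genes were called at an adjusted p up to 0.05 if the log2 fold change was 0.6 or more in size and normalized counts averaged 20 or more. DESeq2, the tool of the study, was run with its own filter, which left 15896 genes. The text names the members, the 5 nearest profiles of Fyn and of Lyn and, of each list, the genes past the test or otherwise up to 4 of the most abundant. As edgeR's adjusted test called no gene, list genes named for DESeq2 or the unadjusted p, and Pag1, Dcc, Itga6, Tyrobp, Trem2, Fcgr3 and some markers, were chosen after their values were seen. A few genes under this rule are not reported here. The members, the lists and the tests were chosen with earlier results of these data known. Some genes stand in 2 lists (Ptprc, Mag, Matk, Trem2 and Tyrobp). Gene positions, merged exon lengths and coding sequences came from GENCODE M21 on GRCm38.

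Alternatives were the size factors of DESeq2, other filters, DESeq2, limma voom, a replicate block, an unadjusted p, and each library left out in turn (calls of the last were added after the data were seen). Replicates differed by more than sampling noise, with a chi-square per gene of 88.6 in ctrl and 5.66 in Zfp276cko libraries. Deviations of libraries with the same number had a correlation of 0.0067, so that the numbers were not taken as pairs. The analysis was tested on simulated data with the same spread in both genotypes, so that the unequal spread of these libraries was not covered. Intervals from counts cover counting error only. Reads without molecular identifiers are not independent molecules.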

Additional observations from a re-analysis of the deposited data

How the results depend on the processing

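With edgeR's adjusted test, 0 members and 0 of all genes in either direction were called, also with DESeq2 size factors, with at least 10 counts in every library, with limma voom and with the replicate block. DESeq2 called 1 member, 335 lower and 445 higher genes. The unadjusted p gave 3 members, 476 lower and 806 higher genes. Without a filter on low counts, 8 higher genes were called. With each library left out, the calls ranged from 0 to 4 members, from 0 to 1286 lower genes and from 0 to 1792 higher genes. The upper values were those without ctrl replicate 2, whereas the omission of ctrl replicate 1 gave 3 members, 952 lower and 1689 higher genes. In these fits the lone library is assumed to vary like the other genotype, and only the omission of a ctrl library, which leaves the spread of the Zfp276cko libraries, gave calls.

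The log2 fold change of Fyn was past the threshold in DESeq2 (−0.77), and in edgeR it ranged from −0.77 to −0.75 over the 4 omissions. In the fit with the replicate block it was −0.76 (edgeR adjusted p = 0.274), and the block changed no call. Without ctrl replicate 1 the Src log2 fold change reversed to 0.0611 (range over the omissions −0.25 to 0.0611) and the Csk log2 fold change to −0.0115 (−0.0115 to 0.30), and the cause was not tested. The values of Fgr and Frk without either ctrl library and of Lyn without ctrl replicate 2 passed the threshold, and all other values of members kept their direction. Lck and Frk have no value with at least 10 counts in every library. The median of all genes was −0.00125 with TMM and −0.0156 with DESeq2 size factors. Depth limits what can be said of Fgr, Lck, Frk and Blk.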
